A study of Rattus norvegicus with 12 samples.

Results

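The antioxidant response genes described here were Nfe2l2, Keap1, Hmox1, Nqo1, Gclc, Gclm, Srxn1, Txnrd1, Slc7a11 and Sod2, chosen by gene symbol as the transcription factor NRF2, its repressor KEAP1 and enzymes and a transporter of oxidant defence. They were 10 of 26214 distinct gene names in the annotation of the replicate 1 arrays, which carried 12 probes for them among 30367 gene probes, with 2 probes each for Slc7a11 and Txnrd1 and 1 for each other gene. Of these 12 probes, 11 passed the filter on dim signals, which 23796 of all probes passed, and the probe of Gclm did not. The cultures were neuron-enriched cells of the cerebellum of 1 day old Sprague-Dawley rats, grown with 1% fetal bovine serum until day 8 and then without serum. The 6 control cultures received 0.001% dimethyl sulfoxide, and the 6 ACE cultures received 1 µM acetamiprid, a neonicotinoid insecticide, in the same share of dimethyl sulfoxide. Exposure began after 2 days and RNA was taken at 16 days in vitro (DIV). Each replicate number stands for a separate culture experiment on the pooled cells of 1 litter, which supplied both the control and the ACE culture of that number, so control versus ACE (CvA) was compared within 6 pairs. The nicotine and imidacloprid cultures were not analysed here.

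NRF2, the product of Nfe2l2, is a basic leucine zipper transcription factor that the KEAP1 adaptor holds in the cytoplasm and passes to a ubiquitin ligase for degradation. Oxidants and electrophiles modify cysteines of KEAP1, newly made NRF2 then escapes degradation, and with a small MAF partner it binds antioxidant response elements (AREs) in front of its targets. In the brain the pathway is most active in astrocytes, which export glutathione precursors to neurons. NRF2 is controlled largely at the protein level, so its own mRNA is only a partial readout of its activity, while the mRNAs of its target enzymes are the usual readout.

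None of the 11 tested probes differed between control and ACE after adjustment over all probes (0 at a limma Benjamini-Hochberg adjusted p under 0.05; lowest value 0.1842), as was the case for all 23796 probes (percent called 0, lowest adjusted p 0.1406). At an unadjusted limma p under 0.05, 1 of the 11 probes differed (9.09%), a probe of Txnrd1 that was lower in ACE. The background share of all probes at that threshold was 16.6%, with 6.9% higher and 9.73% lower in ACE. With 6 pairs, the exact signed-rank test gives a p under 0.05 only where all 6 go the same way. Its count, 1 of 11 against 11.6% of all probes, is therefore a count of such probes and not separate evidence. The median log2 difference, ACE minus control, was -0.031 over the 11 probes and -0.0050 over all tested probes, with 8 of the 11 below 0 and 3 above 0. The 95% limma intervals of the 11 probes reached from -0.31 to 0.19 on the log2 scale, or 0.808 to 1.14 times the control level, so that each of the 11 excluded a change of 1.5-fold in either direction. RNA was measured in whole cultures, where fewer cells of a type and less RNA per cell cannot be told apart.

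**Figure D1:**
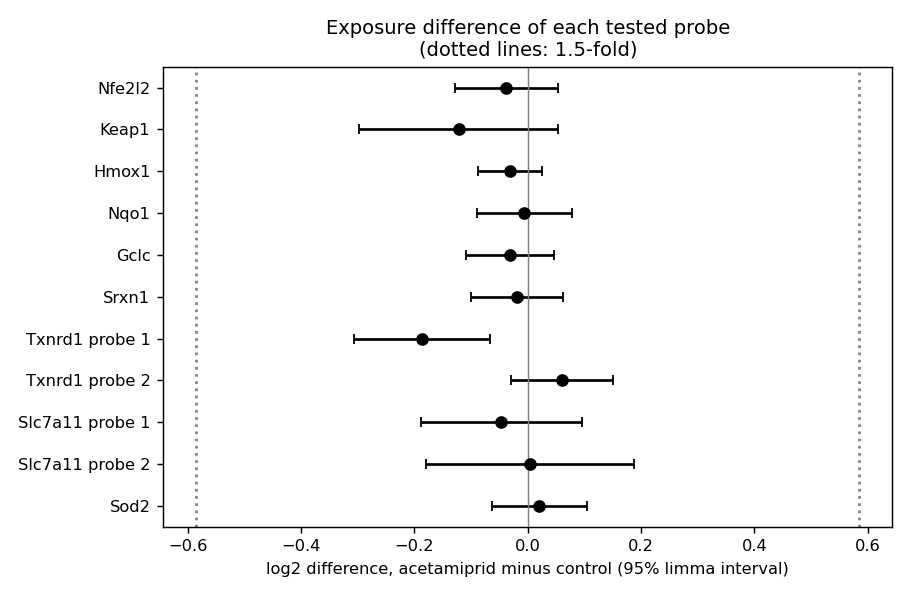
Mean log2 difference, ACE minus control, of the 11 tested probes (points) with 95% limma intervals (bars) over 6 pairs; the solid line marks no difference and the dotted lines a 1.5-fold change. The interval of Txnrd1 probe 1 lies wholly below 0, the other 10 cross 0, and no interval reaches a dotted line.

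Before the results, the labelled culture was checked against marker genes. The brightest glial markers, each within its own list, were the astrocyte genes Fabp7 and S100b, the oligodendrocyte gene Mbp and the microglial genes Tyrobp and Cd68. The neuronal genes Stmn2 and Map2 were also well above background on all 12 arrays. The granule cell gene Cbln1 and the Purkinje cell gene Car8 were present too, as were the meningeal fibroblast gene Col1a2 and the skeletal muscle gene Myh8. Of 10 skeletal muscle markers, 6 including Myh8 were well above background on all 12 arrays. Myh3, Myl1, Tnni1 and Ckm were so on 10, 4, 5 and 4 arrays, so Myh8 did not stand for the whole list. The values below are therefore sums over neurons, glia and other cells. The mean of those 6 skeletal muscle markers differed between the cultures of a pair by -3.14 to 0.13 on the log2 scale. It was lower in ACE in 5 of 6 pairs, and its part in the results was not tested. The 75th percentile of the processed signal ranged from 1803 to 4384 intensity units over the 12 arrays, and 75.4 to 91% of gene spots were well above background. Precision is limited by the number of arrays. On all 6 slides the first place held control RNA and the third place ACE RNA, so place on the slide and exposure cannot be told apart.

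The ARE is shown first because it is what the target genes are known to share. The RefSeq promoter table (build GRCr8, 250 bases before to 50 after each gene start) held 9 of the 10 genes, Hmox1 being the exception. The ARE core TGACNNNGC was searched on both strands and was found for 4 of the 9 genes, Nfe2l2, Gclm, Txnrd1 and Sod2, against 4038 of 33469 promoters in the table (12.1%). The windows of Gclm, Txnrd1 and Sod2 around the core follow in the direction of transcription, with the core in capitals, here read on the opposite strand.
Gclm, chr2:213031943-213031991, plus strand, core starting at -172: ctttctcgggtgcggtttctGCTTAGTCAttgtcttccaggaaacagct
Txnrd1, chr7:22755954-22756002, minus strand, core starting at -78 in 1 of its 2 promoters: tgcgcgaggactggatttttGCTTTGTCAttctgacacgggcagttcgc
Sod2, chr1:50050175-50050223, minus strand, core starting at -35: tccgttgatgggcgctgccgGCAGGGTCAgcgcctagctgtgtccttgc
In Nfe2l2 the core began at 38, after the gene start. The AP-1 motif TGACTCA, which resembles the ARE, was found in 1550 promoters (4.63%) and for 1 of the 9 genes, Srxn1, at -62 and -5. A match describes letters only; AREs that lie farther from the start than this window were not searched.

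The regulators came first. Nfe2l2 had a control signal of 12.52 at its lowest, 12.83 at its median and 13.10 at its highest on the log2 scale, and an ACE signal of 12.53, 12.76 and 13.00. The groups overlapped over almost their whole range, and the ACE culture was the lower of its pair in 4 of 6 pairs. ACE minus control averaged -0.038 ± 0.038 (SE) on the log2 scale (limma p of 0.3546 unadjusted, 0.6367 adjusted). Its probe spans chr3:58367137-58367196 (rn4, minus strand) and ends in a stop triplet, shown in capitals, so that it reads the 3′ end of the coding sequence of the transcription factor:
Nfe2l2: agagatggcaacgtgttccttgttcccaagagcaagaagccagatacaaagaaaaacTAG

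Keap1, the adaptor that presents NRF2 for ubiquitination, was at 10.11, 10.39 and 10.54 in control (lowest, median, highest) and at 9.78, 10.24 and 10.51 in ACE. The ACE cultures of replicates 2 and 4 lay under the control range, and the other 4 within it. The mean log2 difference was -0.12 ± 0.073 (SE; adjusted limma p of 0.4407), the second largest in size among the 11 probes. It was also uneven between litters: the ACE culture was lower by 0.33 and 0.36 in replicates 2 and 4 and higher by 0.14 in replicate 3. Without replicate 3 the difference was -0.17 (unadjusted limma p of 0.0486), but it was -0.080 without replicate 2 (0.3354) and -0.074 without replicate 4 (0.3412).

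Hmox1 encodes the inducible haem oxygenase, which breaks down haem to biliverdin, iron and carbon monoxide and is among the most inducible targets of NRF2. Its control signals were 12.62, 13.01 and 13.39 and its ACE signals 12.60, 12.96 and 13.33 (lowest, median, highest). These were the most even pairs of the 11 probes: the pair differences ran from -0.064 to 0.023 and had an SD of 0.0324. The ACE culture was lower in 5 of 6 pairs, but the mean log2 difference was only -0.032 (95% interval -0.089 to 0.025), and the exact two-sided sign-flip permutation test gave a p of 0.09375. The Hmox1 probe was printed in 10 spots on each array, whose mean was used. It spans chr19:13969336-13969395 (rn4, plus strand).
Hmox1: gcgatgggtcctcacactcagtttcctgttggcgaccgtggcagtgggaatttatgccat

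Nqo1 encodes NAD(P)H quinone dehydrogenase, which reduces quinones in a single step that avoids radical semiquinones. Control cultures were at 11.48, 12.05 and 12.59 and ACE cultures at 11.34, 12.08 and 12.58 (lowest, median, highest). The groups overlapped throughout, with 3 pairs higher and 3 lower in ACE. The mean log2 difference was -0.0064 (95% interval -0.090 to 0.077; adjusted limma p of 0.9404), which was near 0 and changed sign with the source of values and with the litters included.

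Glutathione supply was represented by Gclc and Gclm, the catalytic and modifier subunits of glutamate-cysteine ligase, and by Slc7a11, the cystine-glutamate exchanger xCT that imports its cysteine. Gclc was at 12.31, 12.44 and 12.61 in control and at 12.35, 12.39 and 12.64 in ACE. The ranges nearly coincided, and the mean log2 difference was -0.031 (95% interval -0.11 to 0.046; adjusted limma p of 0.6458). Both cultures of replicate 2 were the highest of their group.

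Gclm could not be assessed. Its probe was well above background on 1 of 6 control arrays, that of replicate 1, and on 0 of 6 ACE arrays. Its log2 signals were 1.51 to 3.93 in control and 1.43 to 2.18 in ACE, and no fold is given. The probe contained 15% G and C, against 30 to 55% for the 11 tested probes.

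Slc7a11 had the widest spread of the 9 tested genes. On probe 1, printed in 10 spots, control cultures were at 11.40, 12.39 and 12.99 and ACE cultures at 11.57, 12.23 and 12.80 (lowest, median, highest). On probe 2 they were at 6.44, 7.37 and 8.08 and at 6.79, 7.22 and 8.03. The groups overlapped on both probes, which followed each other over the 12 arrays (Pearson r of 0.926, as a description, over arrays that share litters). Mean log2 differences were -0.046 (95% interval -0.19 to 0.096) on probe 1 and 0.0040 (95% interval -0.18 to 0.19) on probe 2, where the sign turned to -0.058 under a shift by the 75th percentile of each array. On probe 1 the ACE culture was lower in replicates 1 to 4 and higher in replicates 5 and 6, and the mean was 0.053 over the 3 pairs of 1 scan day (replicates 4 to 6) and -0.15 over the other 3. Probe 2 spans chr2:139248397-139248456 (rn4, minus strand) and ends in a stop triplet, in capitals.
Slc7a11 probe 2: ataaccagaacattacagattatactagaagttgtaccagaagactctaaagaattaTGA

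**Figure D2:**
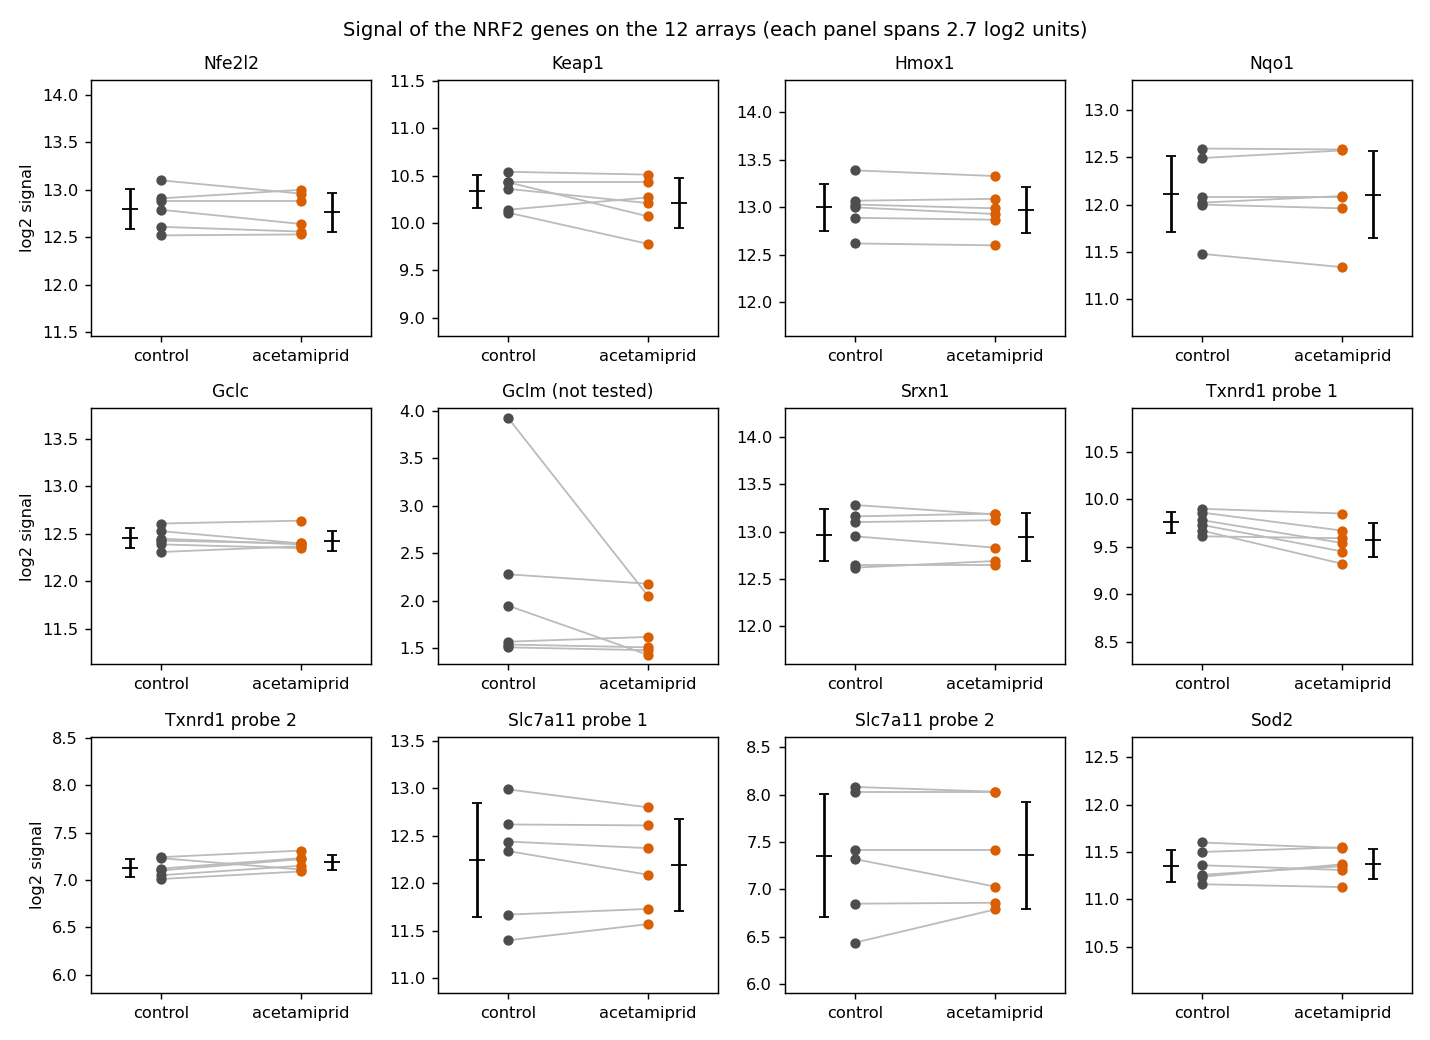
Normalised log2 signal of the 12 probes on the 12 arrays; grey points are control, orange points ACE, grey lines join the pair of a litter, and black bars give the mean and SD of 6 cultures (none for Gclm, which was not tested). For Hmox1 and Nqo1 the lines are nearly flat while the points of a group spread widely, for Keap1 and Txnrd1 probe 1 single lines fall by up to 0.36 and 0.35, and only in Txnrd1 probe 1 do all 6 lines go down.

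Txnrd1 encodes the cytosolic thioredoxin reductase, a selenoenzyme that regenerates thioredoxin with NADPH. It was the only one of the 9 tested genes with a probe at an unadjusted limma p under 0.05. On probe 1 the control cultures of replicates 1 to 6 were at 9.61, 9.78, 9.90, 9.67, 9.73 and 9.86, and the ACE cultures at 9.59, 9.54, 9.85, 9.32, 9.45 and 9.67. The ACE culture was the lower in 6 of 6 pairs, by 0.021 to 0.35, although the 2 groups overlapped. ACE minus control averaged -0.19 ± 0.050 (SE) on the log2 scale, or 0.878 times control (limma p of 0.008276 unadjusted, 0.1842 adjusted). The exact sign-flip permutation p was 0.03125, the smallest that 6 pairs allow. Of all tested probes, 11.6% had the same direction in all 6 pairs, 6.86% lower and 4.72% higher in ACE, against 1 of these 11 (9.09%, lower), a share near the background. The mean was -0.27 in the 3 pairs scanned on 1 day (replicates 4 to 6) and -0.10 in the other 3.

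The other probe of Txnrd1 did not follow it. On probe 2 the control cultures were at 7.01, 7.05, 7.24, 7.12, 7.23 and 7.10 and the ACE cultures at 7.09, 7.15, 7.31, 7.23, 7.11 and 7.22 in replicates 1 to 6. Here the ACE culture was the higher in 5 of 6 pairs, the exception being replicate 5. The mean log2 difference was 0.060 ± 0.037 (SE; adjusted limma p of 0.4526), 0.094 without replicate 5 (unadjusted limma p of 0.0129), and -0.0010 under a shift by the 75th percentile of each array. The change on probe 1 was below that on probe 2 in 6 of 6 pairs, by 0.25 on average (range -0.461 to -0.0972), with an exact two-sided sign-flip permutation p of 0.03125, or 0.0625 after adjustment over the 2 genes with 2 probes. For Slc7a11 the same comparison gave -0.050 and an exact permutation p of 0.5312. Over the 12 arrays the Txnrd1 probes had a Pearson r of 0.155, given as a description. Averaged, the probes gave a log2 difference of -0.064, with an unadjusted limma p of 0.1196. A direction for Txnrd1 thus depended on the probe. Both carry the same RefSeq accession on the array. Per the array annotation, probe 1 aligned to rn4 over only 34 of its 60 bases, at chr7:23055528-23055561, and probe 2 over all 60, at chr7:23065196-23065255, both on the minus strand. Probe 2 is shown because it is the fully aligned one.
Txnrd1 probe 2: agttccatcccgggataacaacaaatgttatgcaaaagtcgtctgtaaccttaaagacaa

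Srxn1 encodes sulfiredoxin, which reactivates hyperoxidised peroxiredoxins. Its control signals were 12.62, 13.02 and 13.28 and its ACE signals 12.65, 12.97 and 13.19 (lowest, median, highest). The groups overlapped, with 3 pairs in each direction and a mean log2 difference of -0.019 (95% interval -0.10 to 0.063; adjusted limma p of 0.8013).

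Sod2, the mitochondrial manganese superoxide dismutase, answers to NF-κB as well as to NRF2. Control cultures were at 11.16, 11.31 and 11.60 and ACE cultures at 11.13, 11.36 and 11.55. The mean log2 difference was 0.020 (95% interval -0.064 to 0.10; adjusted limma p of 0.7908), again with 3 pairs in each direction.

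No litter moved the whole group. Of the 11 probes, the number higher in ACE was 5 in replicates 1, 2 and 6, 2 in replicates 3 and 4, and 7 in replicate 5. The median pair difference over the probes was lowest in replicate 4 (-0.067) and highest in replicate 5 (0.014). Of the genes with an ARE core in the window, Sod2 and Nfe2l2 had log2 differences of 0.020 and -0.038, the Txnrd1 probes lay on either side of 0, and Gclm was not assessable.

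Most of the variance of these genes lay between litters. Each litter had a slide of its own, so litter and slide cannot be told apart. Litter accounted for 99.2% of the variance of Nqo1 over the 12 arrays, for 99.1% of that of Hmox1 and for 97.8% of that of Srxn1 and of Slc7a11 probe 1, and exposure for 0.00668, 0.498, 0.151 and 0.217%. The median over 23580 probes with all pairs was 92% for litter and 1.42% for exposure, so a large share for litter was general to these arrays. The lowest share for litter among the 11 probes, 56%, and the highest for exposure, 31.8%, were both those of Txnrd1 probe 1.

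Each gene had its own order of litters. Mean Nqo1 signal of a litter ran from 11.41 in replicate 3 to 12.58 in replicate 2, a range of 1.17 on the log2 scale. Hmox1 was also lowest in replicate 3 (12.61) but was highest in replicate 4 (13.36). Srxn1 was highest in replicate 1 (13.23) and lowest in replicate 6 (12.65). The SD of the litter means was 7.62 times the SD of the pair differences for Hmox1, 5.43 times for Nqo1 and 3.48 times for Slc7a11 probe 1. At the other end, Gclc varied little: the SD of its litter means was 0.0992, lower than that of all but 5.78% of probes, and that of Txnrd1 probe 2 was 0.0764. The median over all probes was 0.286.

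**Figure D3:**
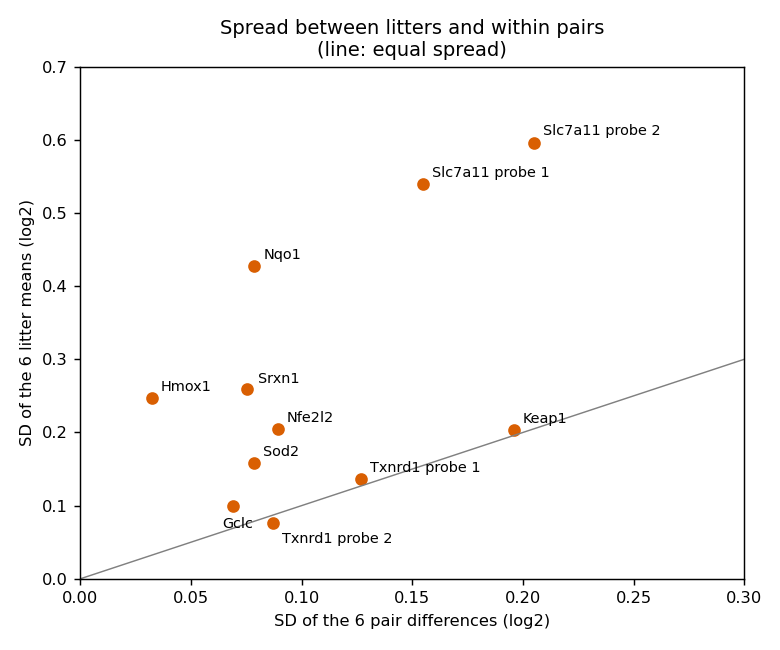
SD of the 6 litter means (y axis) against SD of the 6 pair differences (x axis), both on the log2 scale, for the 11 tested probes; the line marks equal spread. Hmox1, Nqo1 and both Slc7a11 probes lie far above the line, and Txnrd1 probe 2 lies just below it.

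Slc7a11 and the astrocyte markers were both highest in replicates 1 and 3 and lowest in replicates 5 and 6. The litter means of Slc7a11 probe 1 were 12.61, 12.22, 12.89, 12.41, 11.70 and 11.49 in replicates 1 to 6, and those of probe 2 were 8.03, 7.42, 8.05, 7.17, 6.86 and 6.61. The mean of 9 astrocyte markers, all well above background on all arrays, was 14.70, 14.30, 14.53, 14.32, 13.80 and 13.58 in replicates 1 to 6. The mean of 10 oligodendrocyte markers was highest in replicates 5 and 6, at 14.20, 14.13, 14.32, 14.58, 14.80 and 14.93. The part of these cell types in the Slc7a11 signal was not tested. Between control and ACE, the astrocyte list ranged from 13.61 to 14.73 and from 13.55 to 14.67, with a median log2 difference of -0.055, 8 of 9 markers below 0, and 0 of 9 at an unadjusted limma p under 0.05, against 16.6% of all probes. The genes whose pattern over the 12 arrays was most like that of Slc7a11 probe 2, among 20060 candidate probes, were Tmie (Pearson r of 0.979), Spag5 (0.978), Car5b (0.977), Slc25a18 (0.976) and Ech1 (0.975). These correlations are descriptions over 12 arrays from 6 litters.

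**Figure D4:**
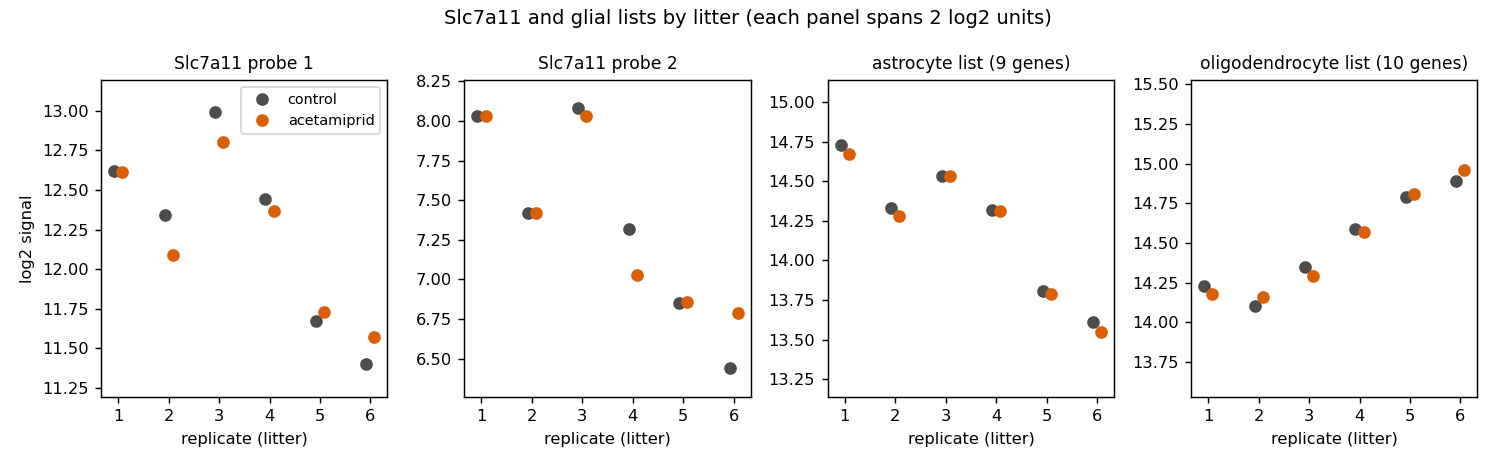
Log2 signal of both Slc7a11 probes and mean log2 signal of the astrocyte and oligodendrocyte marker lists by litter; grey points are control and orange points ACE cultures. Slc7a11 and the astrocyte markers are lowest in replicates 5 and 6, where the oligodendrocyte markers are highest, and control and ACE of a litter differ most for Slc7a11 probe 2 in replicate 6, by 0.35.

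The rest of the pathway and the neighbouring stress programmes of ATF4 and NF-κB were followed in 7 lists, together called pathway genes here. The lists held 121 genes, of which 112 were tested, with the brightest probe standing for a gene. None passed the adjusted limma threshold (0 of 112), and 10 passed the unadjusted one, 6 higher and 4 lower in ACE (8.93%, against 16.6% of all probes). The ATF4 and NF-κB lists held 1 and 2 of the 6 higher genes and 0 of the 4 lower ones. The median log2 difference of the 112 genes was 0.0061, and 106 lay within 0.15 of 0. In the glutathione list, 3 of 19 tested genes were lower at an unadjusted limma p under 0.05 and 0 were higher. That is 15.8% of the list, near the 16.6% of all probes, of which 9.73% were lower and 6.9% higher. Gss, the glutathione synthetase that acts after glutamate-cysteine ligase, was lower in 6 of 6 pairs, with a mean log2 difference of -0.079. The others were Chac1, which degrades glutathione, at -0.12, and the microsomal glutathione transferase Mgst1 at -0.075. Slc3a2, the heavy chain that carries xCT to the membrane, was at 0.022.

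Among 12 tested partners and repressors of NRF2, 1 gene was higher and 1 lower at the unadjusted threshold, which 16.6% of all probes passed. Dpp3, which binds KEAP1 in competition with NRF2, was higher in 6 of 6 pairs, with a mean log2 difference of 0.085. Sqstm1, the autophagy receptor p62 that also binds KEAP1, was at -0.084 on its brightest probe and at 0.031 on its other probe. None of the 21 thioredoxin and peroxide genes passed either threshold (0 by limma, adjusted or not), and their median was -0.016 (-0.030 without replicate 3, -0.0088 without replicate 2, and -0.034 under the 75th percentile shift). The 21 NADPH and drug metabolism targets had a median of 0.024, which was 0.010 without replicate 5, 0.012 without replicate 4, 0.041 without replicate 3 and -0.026 under the 75th percentile shift. Of these, 1 gene was higher at the unadjusted threshold (4.76%), Ugt1a6, a glucuronosyltransferase of a multigene family whose exons are shared. Its 2 probes gave 0.13, with 6 of 6 pairs higher, and 0.026. In the haem and iron list, 1 of 12 genes was higher at the unadjusted threshold (8.33%, against 16.6% of all probes). It was the iron transporter Slc11a2 at 0.11, and its other probes gave 0.12 and 0.029.

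Neighbouring stress programmes that share targets with NRF2 were set beside it. ATF4 also drives Slc7a11, and 13 of its 14 list genes had differences above 0, with a median of 0.049, against -0.0050 over all tested probes. The share of all probes above 0 was not computed, and the 14 values come from the same 6 pairs. Only Ddit3, which encodes the stress factor CHOP, passed the unadjusted threshold (7.14% of the list, against 16.6% of all probes). It was higher in 6 of 6 pairs, with a mean log2 difference of 0.11 and an adjusted limma p of 0.158. NF-κB also drives Sod2, and its 13 tested genes had a median of 0.073, with the cytokine gene Tnf (0.14) and the chemokine gene Ccl2 (0.24) higher at the unadjusted threshold, or 15.4% of the list against 16.6% of all probes. That median depended on the pairs and the source of values: it was 0.028 without replicate 1, 0.033 without replicate 5, 0.12 without replicate 4 or replicate 6, and 0.15 with the deposited values. Of 10 microglial markers, 0 passed the adjusted limma threshold and 3 the unadjusted one (30%, against 16.6% of all probes), in both directions. The chemokine receptor gene Cx3cr1 had a log2 difference of -0.35 and was lower in 6 of 6 pairs, Aif1 was higher by 0.19 in 6 of 6 pairs, and the lysosomal marker Cd68 was higher by 0.16 in 5 of 6 pairs. The mean of the list ranged from 12.58 to 12.91 in control and from 12.49 to 13.01 in ACE. It was higher in ACE by 0.43 in replicate 1, while the pair differences in replicates 2 to 6 were -0.10 to 0.01. The part of microglia in these values was not tested.

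**Figure D5:**
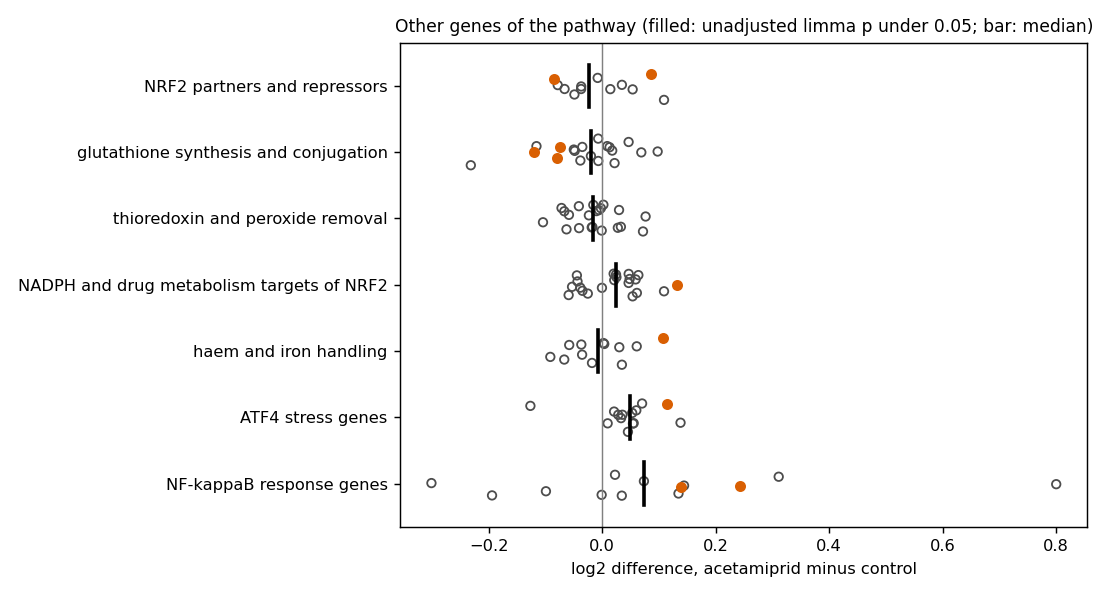
Log2 difference, ACE minus control, of the tested genes in 7 lists of the NRF2 pathway and neighbouring stress programmes; each point is a gene, filled points have an unadjusted limma p under 0.05, and bars mark list medians. The medians lie between -0.023 and 0.073, and the widest scatter is in the NF-κB list.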

How the data were processed

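Total RNA of 6 control and 6 ACE cultures was hybridised to 1-colour Agilent rat arrays. Per the file headers, the authors extracted Cy3 intensity with Feature Extraction 11.0.1.1 (the 2 arrays of replicate 1) or 11.5.1.1 (the other 10), with background subtracted but arrays left unscaled. A table of log2 values was deposited too, quantile normalised and centred per probe per their methods, which correlated at 0.997 to 0.999 per array with those computed here and served as an alternative.

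Control spots were left out and outlier spots set to missing (447 probe values). The log2 processed intensity was quantile normalised over 12 arrays, and spots of a probe were averaged. A probe was tested where its signal was over the array's 20th percentile on 7 or more arrays and it had at least 4 pairs. CvA was tested with limma 3.58.1 in R 4.3.3 (figures with matplotlib 3.10.9), two-sided, with the replicate number as a block and Benjamini-Hochberg adjustment over all 23796 probes; limma code was tested on simulated data. Pairing rests on the shared litter: deviations from group means correlated at 0.449 to 0.912 for the same number and at -0.438 to 0.390 for different numbers. Each slide held 1 pair.

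The genes, pathway lists and marker lists were chosen with earlier results of these data known. All probes of the 10 genes are named. From each list, up to 3 genes with the lowest unadjusted limma p under 0.05 are named, with markers from the 2 brightest of a cell type (1 is not reported here) and the 5 genes most like the most variable probe; Slc3a2, Cx3cr1, Aif1 and the comparison between probes of a gene were chosen after values were seen. Variance shares are sums of squares for litter and exposure over the total. Gene names were those of the replicate 1 arrays; the replicate 3 arrays carry other names for 3062 of 30367 probes, which changes the probes of 8 of the 221 genes used and none of the 12 probes of the antioxidant genes. Probe positions are those of the array annotation (rn4). Alternatives were the 75th percentile shift, normexp (offset 50), the deposited values, the filter, the block, the signed-rank test, the scan day, the mean over probes and leaving out each pair.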

Additional observations from a re-analysis of the deposited data

Results flagged for a closer look

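Among 22 groups of 6 cultures (11 tested probes in control and ACE), 1 held a culture set apart from the others. Gclc in the ACE culture of replicate 2 was at 12.64 on the log2 scale, against 12.40 for the nearest and 12.35 for the lowest ACE culture. The control culture of the same litter, at 12.61, was the highest of its group too. Chance sets apart about 5% of such groups.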

How the results depend on the processing

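No probe of the 10 genes passed the adjusted threshold under any alternative that gave a test (0 in each; values within the scan day have none), and over all probes the count was 0 except with the replicate block as a random effect, where 5 probes passed. The 0 of the signed-rank test is no check, since 6 pairs allow it no p under 0.03125. Its lowest adjusted p over all probes was 0.27. The count at an unadjusted limma p under 0.05 depended on the pairing: with no replicate block it was 81 of all probes, 0 of the 11 probes of the antioxidant genes, 0 of the pathway genes and 0 of the cell type markers. Txnrd1 probe 1 then had an unadjusted limma p of 0.0803, its difference being the same in both fits by construction. With the probes of a gene averaged, 0 of the 9 genes passed, and with the deposited values 6 pathway genes passed. Leaving out 1 pair gave 2810 to 4161 of all probes, 1 to 2 of the 11 probes (2 without replicate 3, through Keap1, and without replicate 5, through Txnrd1 probe 2), 4 to 15 pathway genes (4 without replicate 2, 6 without replicate 6) and 9 to 13 cell type markers. Of the unadjusted calls over all probes, 41.5% were higher in ACE, 19.7% under the 75th percentile shift (median log2 difference of all probes -0.033), 51.5% with the deposited values and 54.3% with no replicate block.

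Differences near 0 changed sign. Gclc was at 0.0089 under normexp, Nqo1 at 0.0017 with the deposited values, and Slc7a11 probe 2 at -0.058 and Txnrd1 probe 2 at -0.0010 under the 75th percentile shift. In replicates 4 to 6 alone, Nqo1 was at 0.0096, Slc7a11 probe 1 at 0.053 and Srxn1 at 0.026. Leaving out 1 pair, Nqo1 ranged from -0.024 to 0.019, Slc7a11 probe 2 from -0.066 to 0.063, Sod2 from -0.0017 to 0.037 and Srxn1 from -0.036 to 0.0012. Without a change of sign, Txnrd1 probe 1 ranged from -0.22 to -0.15, Keap1 from -0.17 to -0.074, Slc7a11 probe 1 from -0.090 (without replicate 6) to -0.0064 (without replicate 2), Nfe2l2 from -0.062 (without replicate 2) to -0.017 (without replicate 4) and Gclc from -0.050 (without replicate 5) to -0.010 (without replicate 3). The medians of the NADPH and drug metabolism, haem and iron, and partner lists were -0.026, -0.026 and -0.057 under the 75th percentile shift. The cause was not tested.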
